A study of Mus musculus with 16 samples.

Results

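Serpins are a family of proteins named for serine protease inhibition, and the mouse genome carries many of them in clades lettered a to i. The family was taken as every row of the expression table whose symbol starts with Serpin, a clade letter and a digit. That gave 49 genes of the 20601 listed. Of these, 30 had a deposited value of at least 1 TPM (a count of reads scaled for gene length and for the library's total) in at least 4 of the 16 libraries and were tested, and 19 were lower and are counted.

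The RNA came from livers of 8 mice in which hepatocellular carcinoma had been started by hydrodynamic plasmid delivery, a rapid tail vein injection that carries DNA into hepatocytes. Each animal of either diet carried the same 3 plasmids: 19 µg for the human oncogene N-Ras, 1 µg for human c-Myc and 2 µg for Sleeping Beauty (SB), a transposase that inserts such DNA into chromosomes. After 4 weeks the mice began either a ketogenic diet (KD, with 0.1% carbohydrate, 89.5% fat and 10.4% protein) or a normal diet (ND). They stayed on it for 4 weeks, so that tissue is from week 8. The 4 groups are KD tumors, ND tumors, KD nontumor livers and ND nontumor livers, with 4 libraries each. There is no liver without plasmids among them, the nontumor tissue came from the same 8 mice as the tumors, and the promoters of the constructs and the strain, sex and age of the mice are not given in the sources used here. Libraries with the same number are not stated to share a mouse. Tumor and nontumor libraries were therefore tested as if independent, although they come from the same mice. The p-values below measure only the spread between these libraries. The comparisons ask how tumors differ from nontumor liver on each diet and how the diets differ within each tissue.

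An inhibitory serpin holds out a flexible loop that resembles a protease's substrate. When the protease cuts this loop, the serpin changes shape and traps the enzyme, so both are used up. The liver is the main source of the serpins of blood plasma, which restrain neutrophil elastase, thrombin, plasmin and the first complement proteases. Other members lost inhibition and carry hormones or fold collagen, and clade b members act inside cells.

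In the mouse, alpha-1 antitrypsin is encoded by a row of near-identical genes on chromosome 12, and the split of reads between them is the first question in reading their values. Serpina1a, Serpina1b, Serpina1c, Serpina1d and Serpina1e each have a coding sequence of 1239 bases, and any 2 of them are 96.3% to 98.5% identical. At 86 positions (6.94%) the copies are not all the same. The stretch printed here, coding bases 1101 to 1160 counted from 1 at the start codon, holds 18 of these positions, and it covers the part that encodes the reactive loop. Capitals mark the positions at which the 5 copies are not all alike, in sequences read from the GRCm38 genome with the GENCODE M21 annotation.
Serpina1a: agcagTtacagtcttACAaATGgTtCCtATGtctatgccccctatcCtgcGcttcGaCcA
Serpina1b: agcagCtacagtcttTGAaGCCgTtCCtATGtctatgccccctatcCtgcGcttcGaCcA
Serpina1c: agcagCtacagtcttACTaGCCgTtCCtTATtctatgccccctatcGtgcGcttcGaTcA
Serpina1d: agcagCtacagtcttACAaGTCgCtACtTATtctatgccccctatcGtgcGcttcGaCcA
Serpina1e: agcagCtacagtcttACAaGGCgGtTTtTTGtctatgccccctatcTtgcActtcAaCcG
A read of 50 bases can lie where it cannot tell a copy from another serpin. Of all 50-base windows of the coding sequence, 39.0% in Serpina1e, 44.7% in Serpina1b, 51.0% in Serpina1d, 74.5% in Serpina1a and 74.7% in Serpina1c occur in another serpin too. Reads from such windows may have been dropped or shared between copies by the authors' counting, so the level of a single copy is uncertain, and sums over the copies are given beside it. Among the Serpina3 genes the shared windows are fewer, with 21.4% in Serpina3k, 24.6% in Serpina3m and 10.9% in Serpina3n.

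The same 5 genes also have near-identical promoters. These are shown because the copies took different courses in the tumors, and the part of the promoters in this was not tested. The 90 bases below are from RefSeq (GRCm38.p6, minus strand), aligned on a motif of hepatocyte nuclear factor 1 (HNF1). Capitals mark the letters TGTTTNC, a motif of the FOXA factors of liver, and GTTAAT, the core of the HNF1 motif.
Serpina1a: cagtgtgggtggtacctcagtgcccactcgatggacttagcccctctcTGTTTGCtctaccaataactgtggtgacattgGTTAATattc
Serpina1b: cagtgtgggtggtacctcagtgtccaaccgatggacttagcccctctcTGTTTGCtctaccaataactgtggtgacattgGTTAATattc
Serpina1c: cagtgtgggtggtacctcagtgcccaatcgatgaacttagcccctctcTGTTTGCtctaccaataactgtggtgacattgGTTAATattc
Serpina1d: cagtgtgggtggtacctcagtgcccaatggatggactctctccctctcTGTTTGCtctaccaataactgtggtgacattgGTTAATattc
Serpina1e: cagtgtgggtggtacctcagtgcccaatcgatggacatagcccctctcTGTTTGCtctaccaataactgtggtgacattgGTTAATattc
The windows lie at chr12:103863631-103863720 (Serpina1a), chr12:103738206-103738295 (Serpina1b), chr12:103904968-103905057 (Serpina1c), chr12:103773640-103773729 (Serpina1d) and chr12:103956966-103957055 (Serpina1e). Any 2 of the 5 windows are 92.2% to 97.8% identical, and in all of them the FOXA letters start 32 bases before the HNF1 letters. This distance was taken from the 5 promoters themselves, so their own matches were fixed in advance. Searched on both strands of the 250 bases before the annotated start, the pair at this distance occurs in 7 of 27025 promoters (0.0259%). Besides the 5 copies these are the promoters of Mptx2 and 1700044C05Rik, so the share is no test of the pair in the Serpina1 genes. The HNF1 letters start 21, 26, 27 and 16 bases before the annotated start in Serpina1a, Serpina1b, Serpina1c and Serpina1d, and 78 bases before it in Serpina1e, whose annotated start is placed further on.

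The deposited TPM values need a common scale before libraries are compared. In ND nontumor 4 the listed genes held 7.376% of all TPM and in the 15 remaining libraries between 49.96% and 88.45%. That library also had the fewest reads over the listed genes, 3.519 in units of 1e6, against 5.677 to 14.07 in the others. Values were therefore divided by 1 factor per library, and all levels below are these rescaled TPM, which count per length of all annotated exons of a gene. The 4 listed hepatocyte markers (Alb, Apoa1, Ttr and Cps1) were present in every library, with a summed level of 108100 to 155900 rescaled TPM in KD tumors, 55390 to 105800 in ND tumors, 25050 to 73680 in KD nontumor livers and 39520 to 73620 in ND nontumor livers. Gene by gene, in the limma test described below, 0 of the 4 were called higher and 1 lower in tumors on each diet. The tumor markers Afp and Gpc3 summed to 15.3 to 449 in KD tumors, 21.3 to 92.6 in ND tumors, 3.17 to 6.76 in KD nontumor livers and 1.30 to 3.80 in ND nontumor livers, so tissues and labels go together. KD nontumor 3 and 4 stood apart from KD nontumor 1 and 2. Both lay below both in 24 of the 30 tested serpins (31.8% of all tested genes) and above both in 2 of them, Serpina9 and Serpinb6b (32% of all tested genes). The hepatocyte markers summed to 25050 and 50370 in KD nontumor 3 and 4 and to 66690 and 73680 in KD nontumor 1 and 2, and the part of this in the serpin levels was not tested.

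The serpins as a whole did not move one way in tumors, and the direction differed from gene to gene. In ND tumors 8 of the 30 tested serpins were higher and 8 lower than in ND nontumor liver, where 14.5% of the 13432 tested genes were called higher and 14.2% lower (28.7% in either direction). In KD tumors 9 were higher and 3 lower than in KD nontumor liver, against 16.3% and 16.2% of all tested genes (32.5% in either direction). A call is a limma p, adjusted over all tested genes by the Benjamini-Hochberg method, under 0.05, and a log2 fold change is on the log2(rescaled TPM + 1) scale, which understates changes of low genes. The 4 libraries of each group did not overlap for 17 serpins on ND (27.5% of all tested genes) and for 12 on KD (33.1%). The median log2 fold change of the 30 serpins was -0.13 on ND and 0.27 on KD, beside -0.00 and 0.01 over all tested genes. On the deposited scale with all 16 libraries the median of all tested genes lay at 0.425 on ND and -0.261 on KD and that of the serpins at 0.37 and 0.03, so directions here are relative to the median gene. Of the 30 calls in all comparisons, 7 held on that scale, and 25 held there once ND nontumor 4 was left out. In whole tissue, fewer cells of a type and less RNA per cell cannot be told apart.

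The counts on KD depend on which KD nontumor livers are used. The share of all tested genes called was not counted in the fits that follow, so their counts are not a result about serpins alone. Without KD nontumor 3 and 4, 5 serpins were higher and 4 lower in KD tumors. Serpina1a (0.77, limma adjusted p = 0.146), Serpina3m (0.14, limma adjusted p = 0.668), Serpinb9 (0.42, limma adjusted p = 0.218) and Serpind1 (0.79, limma adjusted p = 0.0971) were then no longer called, and Serpina3k was (-2.18, limma adjusted p = 0.00484). Without KD nontumor 1 and 2, 12 were higher and 2 lower. Serpine2 (-0.43, limma adjusted p = 0.205) and Serpinb1a (-0.65, limma adjusted p = 0.276) lost their calls, whereas Serpinf1 (1.48, limma adjusted p = 0.00641), Serpinh1 (1.63, limma adjusted p = 0.00379) and Serpina9 (-2.46, limma adjusted p = 0.000104) gained one. Serpina12, Serpina3n, Serpina1b, Serpina10, Serpinf2 and Serpina1e were called on KD either way.

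**Figure D1:**
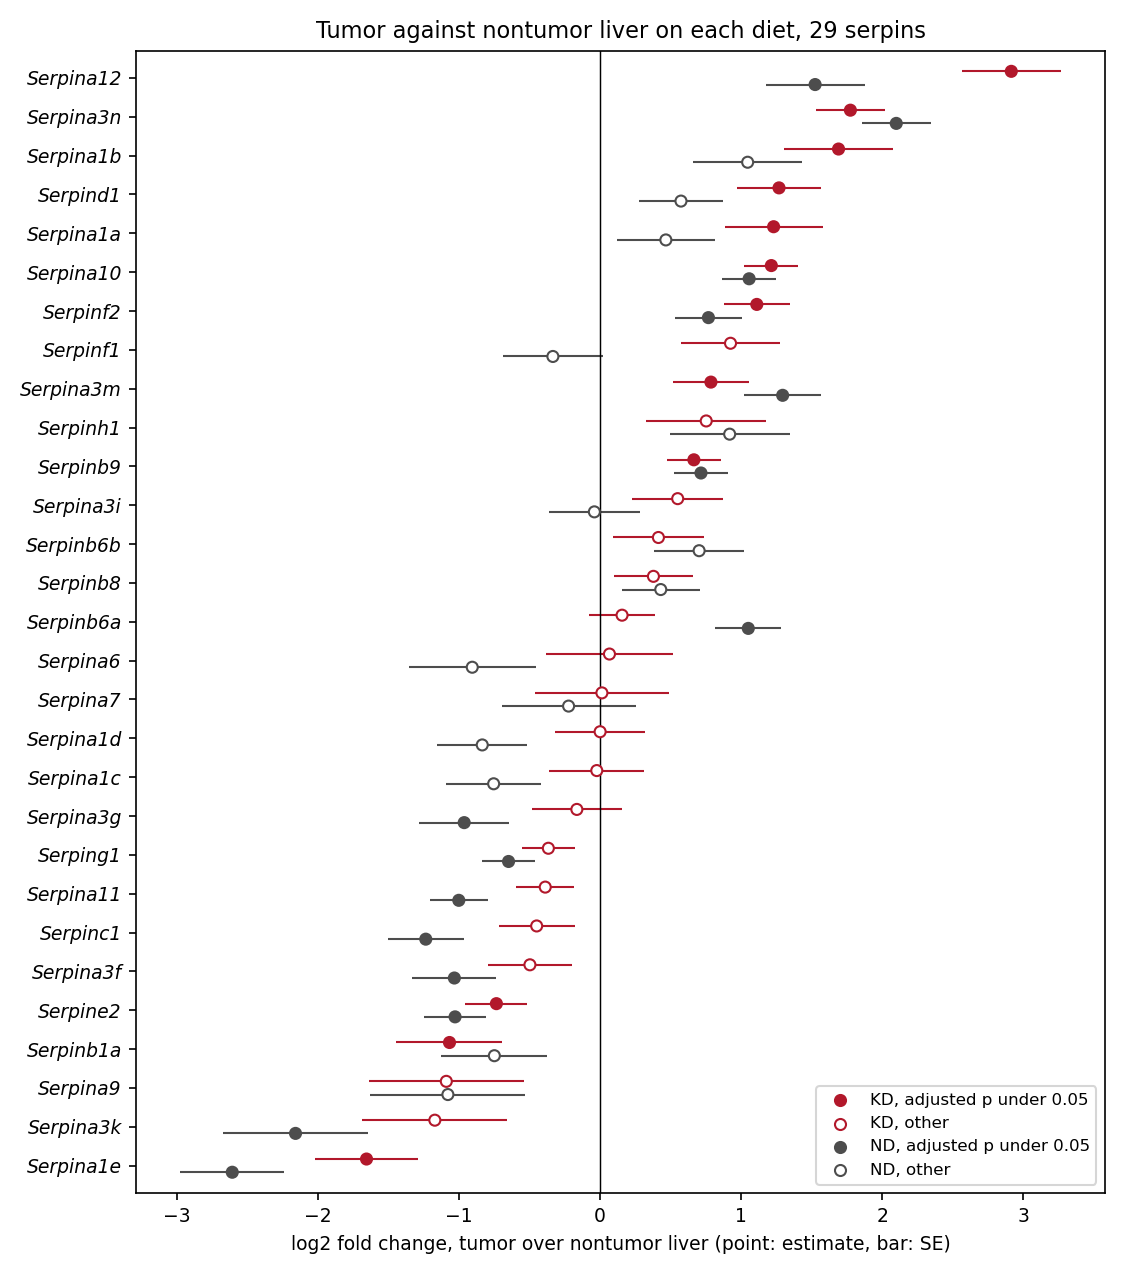
Log2 fold changes of 29 tested serpins in tumors over nontumor liver on KD (red) and ND (grey), with bars for the SE and filled points for limma adjusted p under 0.05. Serpina12, Serpina3n, Serpina10, Serpinf2, Serpinb9 and Serpina3m are filled to the right on both diets, and Serpina1e and Serpine2 to the left.

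The alpha-1 antitrypsin copies were among the most abundant serpins, and tumors held a different mixture of them than nontumor liver. In nontumor liver on ND the copies averaged 3283 (Serpina1e), 3224 (Serpina1c), 2735 (Serpina1a), 2363 (Serpina1b) and 1258 (Serpina1d) rescaled TPM, with SDs of 1198, 1226, 721, 777 and 429 (n = 4). Neighbours in this order lie within each other's SD, except Serpina1d, whose mean is below that of Serpina1b by more than either SD. Per coding base Serpina1b ranks first and Serpina1e second, because the annotated exons of Serpina1b are longer (2415 against 1617 bases).

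Serpina1b stood at 8652, 6264, 6640.4 and 4876 rescaled TPM in KD tumors and 5219.8, 7069, 4464 and 2912 in ND tumors. Nontumor livers had Serpina1b at 2788, 2670, 1138 and 1902 on KD and 1666, 3021, 3051 and 1714 on ND. All 4 KD tumors lay above all 8 nontumor livers, whereas ND tumor 4 lay below ND nontumor 2 and 3. The log2 fold change passed on KD (1.69 ± 0.39, limma adjusted p = 0.00343) and not on ND (1.05 ± 0.39, limma adjusted p = 0.0516), where it did without ND tumor 4 (limma adjusted p = 0.0284). Serpina1a had 6467, 5151, 4493 and 4628 rescaled TPM in KD tumors and 3501, 5295, 3652 and 2709.5 in ND tumors. Nontumor livers had Serpina1a at 2774, 3286, 1308 and 1912 on KD and 2006, 3175, 3509 and 2249.6 on ND. KD tumors again stood above all KD nontumor livers (1.23 ± 0.35, limma adjusted p = 0.0128), and ND tumors overlapped ND nontumor livers (0.47 ± 0.35, limma adjusted p = 0.341). The call of Serpina1a on KD was lost without the filter on low genes (limma adjusted p = 0.0839) and in a fit of the compared groups alone (0.0507).

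Serpina1e went the other way and fell in tumors on both diets. It had 577, 675, 718 and 563 rescaled TPM in KD tumors and 248, 483, 853 and 650.4 in ND tumors. Nontumor livers had Serpina1e at 2457, 2335, 1372 and 1983 on KD and 2810.2, 4031, 4466 and 1825 on ND. No tumor reached the lowest nontumor liver, KD nontumor 3. The log2 fold changes were -1.66 ± 0.37, limma adjusted p = 0.00287 on KD, and -2.61 ± 0.37, limma adjusted p = 7.43e-05 on ND. Serpina1c had 2232, 2324, 2633 and 2337 rescaled TPM in KD tumors and 1771, 2531, 1708 and 1349 in ND tumors. Nontumor livers had Serpina1c at 3315, 2939, 1813 and 1928 on KD and 1728, 4216, 4237 and 2713 on ND. The groups overlapped, and neither diet passed (-0.02 ± 0.34, limma adjusted p = 0.964 on KD; -0.75 ± 0.34, limma adjusted p = 0.105 on ND). Serpina1d had 1023, 922, 1312 and 1071 rescaled TPM in KD tumors and 719.8, 986, 589 and 491 in ND tumors. Nontumor livers had Serpina1d at 1470.2, 1240.3, 632 and 1148 on KD and 959, 1697, 1549 and 828 on ND. Its groups overlapped too (0.00 ± 0.32, limma adjusted p = 0.999 on KD; -0.84 ± 0.32, limma adjusted p = 0.06 on ND). Left-out libraries moved Serpina1c and Serpina1d on ND past the threshold, to limma adjusted p = 0.0327 without ND nontumor 1 for Serpina1c, and to 0.0345 without ND tumor 2 and 0.0355 without ND nontumor 4 for Serpina1d.

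Because the copies share 1 library total, their shares of the summed Serpina1 level do not depend on the scaling between libraries. Serpina1b made up 36.2% to 45.7% of the sum in KD tumors and 35.9% to 45.6% in ND tumors, against 18.2% to 21.8% in KD nontumor livers and 18.1% to 18.7% in ND nontumor livers. Serpina1e made up 3.05% to 4.55% in KD tumors and 2.16% to 8.02% in ND tumors, against 18.7% to 22.3% in KD nontumor livers and 19.6% to 30.6% in ND nontumor livers. For both genes every tumor lay outside the range of all 8 nontumor livers. The share of Serpina1a was also higher in every tumor (28.4% to 34.3% on KD and 30.6% to 33.4% on ND) than in any nontumor liver (20.9% to 26.4% on KD and 19.7% to 24.1% on ND), while those of Serpina1c and Serpina1d were lower in every tumor. The ratio of Serpina1b to Serpina1e was 15, 9.27, 9.25 and 8.67 in KD tumors and 21.1, 14.6, 5.23 and 4.48 in ND tumors, and 1.13, 1.14, 0.83 and 0.959 in KD nontumor livers and 0.593, 0.749, 0.683 and 0.939 in ND nontumor livers. These shares are descriptions, without a test.

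**Figure D2:**
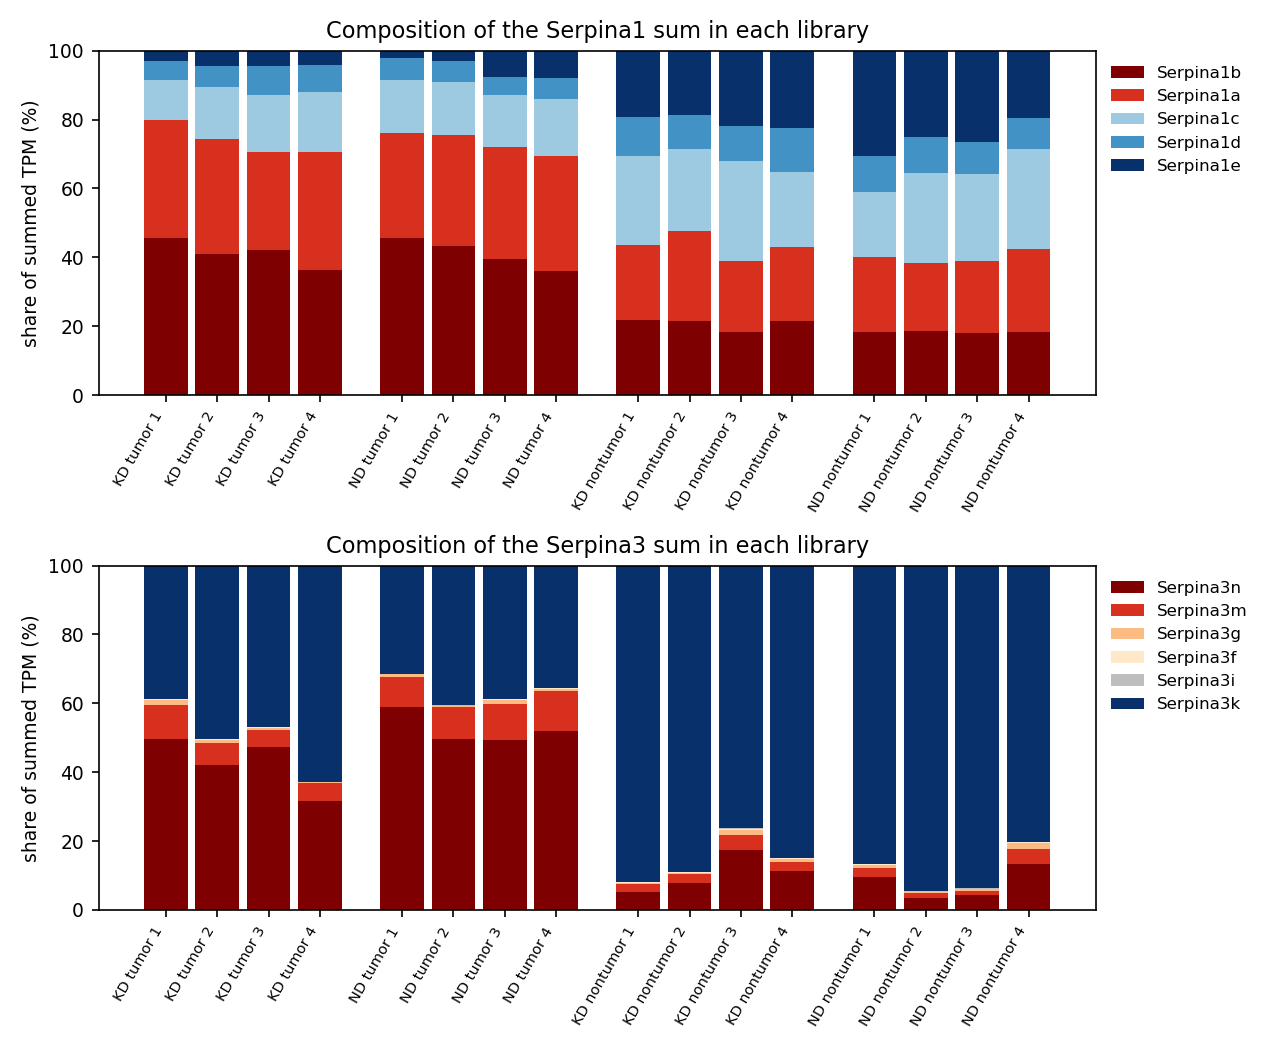
Share of each copy in the summed TPM of Serpina1 (upper panel) and Serpina3 (lower panel) in each of the 16 libraries. Serpina1b takes 35.9% to 45.7% of the Serpina1 sum in tumors and 18.1% to 21.8% in nontumor livers, and Serpina3k takes 31.4% to 62.7% of the Serpina3 sum in tumors and 76.2% to 94.5% in nontumor livers.

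The summed Serpina1 level, over 6 rows including the nearly silent Serpina1f, differed less. It came to 18952, 15337, 15796 and 13473 rescaled TPM in KD tumors and 11459, 16363, 11265 and 8112 in ND tumors. Nontumor livers had a Serpina1 sum of 12804, 12471, 6264 and 8873 on KD and 9169, 16140, 16813 and 9328 on ND. KD tumors stood above all KD nontumor livers (difference of mean log2 sums 0.70, exact p = 0.0286, 0.229 after adjustment over 8 tests, exact two-sided permutation test, n = 4 each), with 0.0286 the smallest p the 70 assignments allow. ND tumors and ND nontumor livers overlapped (difference -0.11, exact p = 0.8, 0.83 after adjustment, same exact permutation test). Without KD nontumor 3 the difference on KD was 0.49 (exact permutation p = 0.0571), and without any 1 of the 4 KD tumors the exact permutation p was 0.0857 to 0.114. Without KD nontumor 3 and 4 it was 0.32 (exact permutation p = 0.2), and on the deposited scale 0.37 (exact permutation p = 0.171).

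The neutrophil proteases that these inhibitors meet were low, with 1 exception. Of 4 neutrophil protease genes (Elane, Prtn3, Ctsg and Prss57), 3 were listed and 1, Prtn3 (proteinase 3, a neutrophil serine protease), passed the filter on low values. Prtn3 averaged 61.0 rescaled TPM in KD tumors and 1.05 in KD nontumor livers (4.95 ± 0.29, limma adjusted p = 4.69e-08), and 87.3 in ND tumors and 2.26 in ND nontumor livers (4.76 ± 0.29, limma adjusted p = 2.8e-08). The 6 neutrophil markers had summed levels of 35.5 to 88.6 in KD tumors, 6.40 to 38.9 in ND tumors, 8.62 to 50 in KD nontumor livers and 9.30 to 72.9 in ND nontumor livers. Ly6g was at 0 in 14 libraries, Mpo in 13, Ngp in 12 and Elane in 7.

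The Serpina3 genes are mouse relatives of human antichymotrypsin, an acute phase protein that inhibits cathepsin G and chymase. In nontumor liver this group was nearly all Serpina3k, a gene related to the kallikrein inhibitor kallistatin, and in tumors Serpina3k was lower and Serpina3n higher. Serpina3k had 461, 997, 867 and 1077 rescaled TPM in KD tumors and 444, 552, 462 and 439 in ND tumors. Nontumor livers had Serpina3k at 4008, 3349, 654 and 1262 on KD and 1739, 3419, 3296 and 1016 on ND. Every ND tumor lay below every ND nontumor liver (-2.16 ± 0.52, limma adjusted p = 0.00493), and on KD the groups overlapped, with KD nontumor 3 below 3 of the KD tumors (-1.17 ± 0.52, limma adjusted p = 0.0923). Without KD nontumor 3 the KD value was -1.66 (limma adjusted p = 0.0151).

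Serpina3n, whose mouse protein inhibits granzyme B and leukocyte elastase, rose in tumors on both diets. It had 591, 831, 878 and 545 rescaled TPM in KD tumors and 835, 676, 588 and 641 in ND tumors. Nontumor livers had Serpina3n at 232, 294, 149 and 166 on KD and 191, 128, 147 and 171 on ND. Each tumor lay above each nontumor liver, and the log2 fold changes were 1.78 ± 0.24, limma adjusted p = 7.57e-05 on KD and 2.10 ± 0.24, limma adjusted p = 1.18e-05 on ND. Serpina3m had 119, 131, 93.5 and 86.3 rescaled TPM in KD tumors and 123, 127, 124 and 143 in ND tumors. Nontumor livers had Serpina3m at 92.8, 99.1, 36.4 and 40.9 on KD and 53.9, 51.8, 49.2 and 53.4 on ND. ND tumors stood apart from ND nontumor livers (1.29 ± 0.27, limma adjusted p = 0.00197), and KD tumors passed with an overlap of groups (0.79 ± 0.27, limma adjusted p = 0.0351). The KD call of Serpina3m was lost without KD nontumor 3 (limma adjusted p = 0.128), KD nontumor 4 (0.126), KD tumor 1 (0.0833) or KD tumor 2 (0.0997). In the annotation Serpina3k (chr12:104338486-104346144) and Serpina3m (chr12:104338486-104394257) begin at the same base on the plus strand and share exons, and their coding sequences are 91.1% identical, so their split is uncertain.

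**Figure D3:**
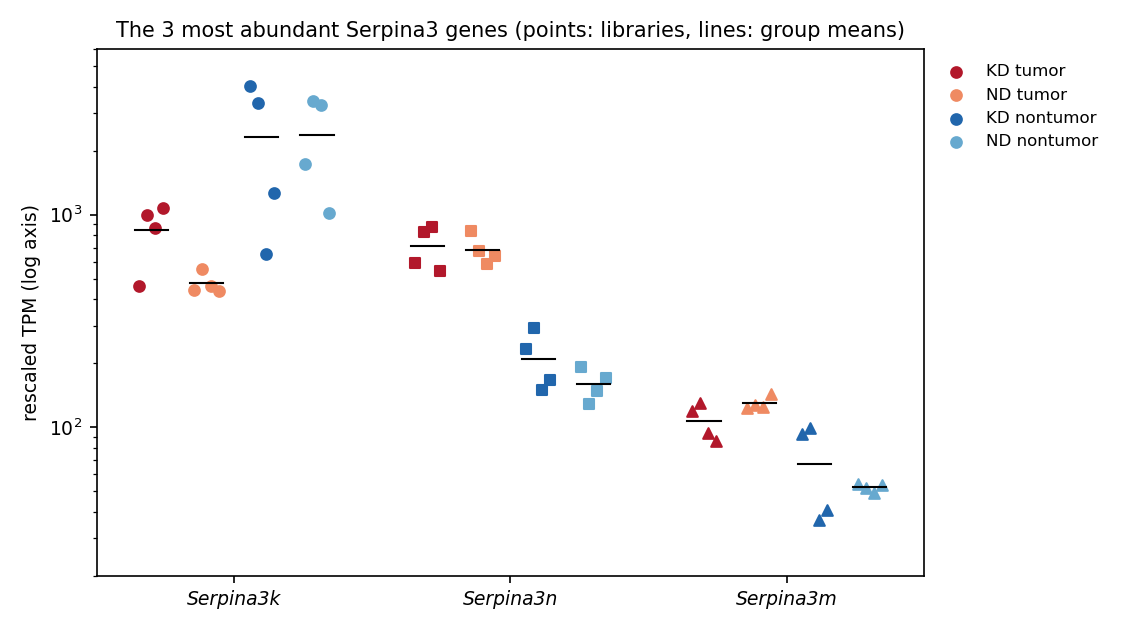
Rescaled TPM of Serpina3k, Serpina3n and Serpina3m in each library on a log axis, with lines for the arithmetic group means. Serpina3k is lower in the 4 ND tumors (439 to 552) than in the 4 ND nontumor livers (1016 to 3419), and Serpina3n is higher in all 8 tumors (545 to 878) than in all 8 nontumor livers (128 to 294).

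As shares of the Serpina3 sum, which do not depend on scaling, Serpina3k came to 38.6% to 62.7% in KD tumors and 31.4% to 40.6% in ND tumors, against 76.2% to 92.0% in KD nontumor livers and 80.2% to 94.5% in ND nontumor livers. Serpina3n made up 31.7% to 49.5% in KD tumors and 49.4% to 59.0% in ND tumors, against 5.32% to 17.4% in KD nontumor livers and 3.54% to 13.5% in ND nontumor livers. No tumor share overlapped a nontumor share for either gene. The sum over 11 Serpina3 rows was 1193, 1979.8, 1855 and 1718 rescaled TPM in KD tumors and 1414, 1361, 1190.3 and 1235 in ND tumors. Nontumor livers had a Serpina3 sum of 4358, 3760.2, 858 and 1485 on KD and 2004, 3619, 3516 and 1268 on ND. Tumors and nontumor livers overlapped on both diets, and neither difference of mean log2 sums passed the exact permutation test (-0.37, exact p = 0.514, 0.686 after adjustment on KD; -0.88, exact p = 0.0857, 0.229 after adjustment on ND). Without ND nontumor 4 the ND difference was -1.18 (exact permutation p = 0.0286 before adjustment). The KD difference was -1.29 (exact permutation p = 0.0667) without KD nontumor 3 and 4 and 0.55 (exact permutation p = 0.2) without KD nontumor 1 and 2.

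The smaller members of this group were low. Serpina3g, known in the mouse as Spi2A, an inhibitor of cathepsins released from lysosomes, had 16.1, 16.5, 10.6 and 5.72 rescaled TPM in KD tumors and 10.7, 4.30, 14.9 and 7.91 in ND tumors. Nontumor livers had Serpina3g at 16.1, 11.7, 13.0 and 11.1 on KD and 16.1, 15.4, 17.5 and 23.6 on ND. It was lower in every ND tumor than in any ND nontumor liver (-0.96 ± 0.32, limma adjusted p = 0.0327) and overlapped on KD (-0.16 ± 0.32, limma adjusted p = 0.719). The ND call was lost in 4 of 8 fits with a library left out, with limma adjusted p = 0.0597 without ND nontumor 3, 0.0867 without ND nontumor 4, 0.11 without ND tumor 2 and 0.0647 without ND tumor 4. Serpina3f had 4.24, 3.07, 4.14 and 3.19 rescaled TPM in KD tumors and 0.281, 0.526, 1.90 and 3.01 in ND tumors. Nontumor livers had Serpina3f at 8.26, 5.71, 4.34 and 4.49 on KD and 3.19, 3.21, 4.47 and 3.13 on ND. It was lower in ND tumors (-1.03 ± 0.30, limma adjusted p = 0.0155), a call lost without ND tumor 1 (limma adjusted p = 0.056) or ND tumor 2 (0.0519), and on KD all tumors lay below all nontumor livers without a call (-0.50 ± 0.30, limma adjusted p = 0.212). Serpina3i lay just inside the rule, with at most 1.30 rescaled TPM in any library and no call.

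Serpins also act as acute phase proteins, and the other genes of that response moved in part. Of 18 acute phase genes that are no serpins, 7 were higher and 2 lower in KD tumors, and 2 were higher and 2 lower in ND tumors, with median log2 fold changes of 0.72 and 0.44. Among all tested genes 16.3% were higher and 16.2% lower on KD, and 14.5% and 14.2% on ND. Lcn2 (lipocalin 2) rose (6.0 ± 0.88, limma adjusted p = 0.000126 on KD; 6.09 ± 0.88, limma adjusted p = 8.95e-05 on ND), and so did Apcs, serum amyloid P (2.89 ± 0.43, limma adjusted p = 0.000138 on KD; 1.54 ± 0.43, limma adjusted p = 0.0125 on ND). Crp (C-reactive protein) fell on ND (-1.46 ± 0.33, limma adjusted p = 0.00354). Il6ra, the receptor chain for interleukin 6, was lower (-1.42 ± 0.22, limma adjusted p = 0.00024 on KD; -0.74 ± 0.22, limma adjusted p = 0.0204 on ND).

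The plasma inhibitors of clotting split, with antithrombin lower in ND tumors and the protein Z-dependent inhibitor higher in tumors on both diets. Serpinc1 (antithrombin, the chief inhibitor of thrombin and factor Xa) had 196, 174, 284 and 305 rescaled TPM in KD tumors and 134, 218, 108 and 138 in ND tumors. Nontumor livers had Serpinc1 at 407, 363, 233 and 299.9 on KD and 257, 404, 444 and 297 on ND. All ND tumors lay below all ND nontumor livers (-1.24 ± 0.27, limma adjusted p = 0.00263), while KD tumors overlapped (-0.45 ± 0.27, limma adjusted p = 0.214). On the deposited scale without ND nontumor 4 the KD value also passed (-0.78, limma adjusted p = 0.0154). Exons of Serpinc1 overlap those of Zbtb37 on the other strand, and its annotated exon length of 8546 bases is far above its coding length of 1395, so it ranked 8 among serpins by TPM in ND nontumor liver and 6 per coding base.

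Serpina10, the inhibitor of factors Xa and XIa that uses protein Z, had 144, 144, 127 and 122 rescaled TPM in KD tumors and 153, 132, 141 and 95.9 in ND tumors. Nontumor livers had Serpina10 at 69.8, 73.0, 44.4 and 46.8 on KD and 63.3, 66.3, 59.7 and 56.4 on ND. Every tumor stood above every nontumor liver, at 1.21 ± 0.19, limma adjusted p = 0.000231 on KD and 1.06 ± 0.19, limma adjusted p = 0.000626 on ND. Serpind1 (heparin cofactor II, a thrombin inhibitor) had 341, 230.0, 288 and 327 rescaled TPM in KD tumors and 185, 329, 184 and 179 in ND tumors. Nontumor livers had Serpind1 at 156, 184, 74.4 and 101 on KD and 111, 161, 208 and 109 on ND. It was higher in all KD tumors than in any KD nontumor liver (1.27 ± 0.30, limma adjusted p = 0.00423), and in ND tumors, where tumor 2 stood above the others, the groups overlapped (0.57 ± 0.30, limma adjusted p = 0.165). Serpine2 (protease nexin 1, a thrombin and urokinase inhibitor of the cell surface) was low at 0.577, 0.956, 0.508 and 0.238 rescaled TPM in KD tumors and 0.285, 0.0242, 0.525 and 0.482 in ND tumors. Nontumor livers had Serpine2 at 2.34, 2.05, 1.20 and 0.973 on KD and 1.49, 1.70, 2.07 and 1.5 on ND. All 8 tumors lay below the lowest nontumor liver, KD nontumor 4 (-0.74 ± 0.22, limma adjusted p = 0.0175 on KD; -1.03 ± 0.22, limma adjusted p = 0.0023 on ND), and the KD call was lost without KD nontumor 1 (limma adjusted p = 0.0568) or KD tumor 4 (0.0524).

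Their target proteases changed singly. Of 9 coagulation protease genes, 0 were higher and 2 lower in KD tumors, and 1 was higher and 2 lower in ND tumors. The shares over all tested genes were 16.3% and 16.2% on KD, and 14.5% and 14.2% on ND. F11 (factor XI) was higher in ND tumors, where it averaged 239 rescaled TPM against 70.2 in ND nontumor livers (1.71 ± 0.23, limma adjusted p = 4.53e-05), and had -0.08 ± 0.23, limma adjusted p = 0.812 on KD. Klkb1 (plasma kallikrein) was lower on both (-1.10 ± 0.25, limma adjusted p = 0.00333 on KD; -1.08 ± 0.25, limma adjusted p = 0.00398 on ND). F7 (factor VII) was lower on KD (-0.73 ± 0.26, limma adjusted p = 0.0392), and F9 (factor IX) on ND (-1.11 ± 0.21, limma adjusted p = 0.00111).

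The inhibitor of plasmin, the enzyme that dissolves clots, was higher in tumors on both diets. Serpinf2 (alpha-2 antiplasmin, which inactivates plasmin) had 1206, 1143, 963 and 824 rescaled TPM in KD tumors and 898, 1165, 770.4 and 641 in ND tumors. Nontumor livers had Serpinf2 at 506, 603, 392 and 417 on KD and 409, 521, 516 and 556 on ND. All 8 tumors stood above all 8 nontumor livers (1.11 ± 0.23, limma adjusted p = 0.00204 on KD; 0.77 ± 0.23, limma adjusted p = 0.0214 on ND). The ND call was lost without ND nontumor 1 (limma adjusted p = 0.0649), ND tumor 1 (0.0527) or ND tumor 2 (0.0707).

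Of 7 other genes of fibrinolysis, 3 were higher and 1 lower in KD tumors, and 2 higher and 2 lower in ND tumors. Over all tested genes the shares were 16.3% higher and 16.2% lower on KD, and 14.5% and 14.2% on ND. Plat (tissue plasminogen activator) averaged 5.60 rescaled TPM in KD tumors and 0.469 in KD nontumor livers (1.91 ± 0.49, limma adjusted p = 0.00772), and rose on ND too (1.51 ± 0.49, limma adjusted p = 0.031). Plau (urokinase) was higher on both diets (1.01 ± 0.36, limma adjusted p = 0.0427 on KD; 1.03 ± 0.36, limma adjusted p = 0.0437 on ND). Lrp1, a receptor that clears serpin complexes, was lower on both (-1.43 ± 0.24, limma adjusted p = 0.000328 on KD; -1.02 ± 0.24, limma adjusted p = 0.00389 on ND). Cpb2 (the precursor of a carboxypeptidase that slows clot lysis) was higher on KD (1.27 ± 0.32, limma adjusted p = 0.00679). Vtn (vitronectin, an adhesion protein of plasma) fell in ND tumors (-1.17 ± 0.38, limma adjusted p = 0.028) and had 0.20 ± 0.38, limma adjusted p = 0.706 on KD.

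Serping1 (C1 inhibitor, which controls C1r, C1s and plasma kallikrein) was lower in ND tumors. It had 257, 264, 278 and 314 rescaled TPM in KD tumors and 261, 215, 165 and 222 in ND tumors. Nontumor livers had Serping1 at 420.2, 379, 289.8 and 356 on KD and 324, 367, 364 and 289 on ND. ND tumors lay below all ND nontumor livers (-0.65 ± 0.19, limma adjusted p = 0.015), and KD tumors overlapped KD nontumor livers (-0.37 ± 0.19, limma adjusted p = 0.142). The ND call was lost without ND tumor 3 (limma adjusted p = 0.0561) and with the replicate block (0.0574), and on the deposited scale with all 16 libraries the sign turned (0.02, limma adjusted p = 0.993). Of 7 tested complement proteases, 1 was higher and 2 lower in KD tumors, and 0 were higher and 3 lower in ND tumors. Beside them, 16.3% of all tested genes were higher and 16.2% lower on KD, and 14.5% and 14.2% on ND. Cfd (factor D) fell on both diets (-2.44 ± 0.82, limma adjusted p = 0.0324 on KD; -3.50 ± 0.82, limma adjusted p = 0.00451 on ND), C1s1 on KD (-0.88 ± 0.21, limma adjusted p = 0.00399), and Masp2 (-0.91 ± 0.20, limma adjusted p = 0.00282) and Masp1 (-0.47 ± 0.16, limma adjusted p = 0.0323) on ND. Cfi (factor I, which cuts C3b) was the 1 that rose on KD (1.16 ± 0.31, limma adjusted p = 0.00876).

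The members that carry hormones, fold collagen or act as secreted factors, rather than inhibit proteases, gave no call between tumor and nontumor liver. Serpinf1 (pigment epithelium-derived factor, which restrains vessel growth) had 308, 251, 474 and 461 rescaled TPM in KD tumors and 177, 246, 148 and 154 in ND tumors. Nontumor livers had Serpinf1 at 276, 283, 85.9 and 191 on KD and 156, 279, 315 and 183 on ND. KD tumors missed the threshold (0.93 ± 0.35, limma adjusted p = 0.0555), passed it without KD nontumor 1 (limma adjusted p = 0.0334), KD nontumor 2 (0.0302) or KD tumor 2 (0.0437), and ND tumors overlapped ND nontumor livers (-0.33 ± 0.35, limma adjusted p = 0.516). Serpina6 (corticosteroid-binding globulin, the plasma carrier of glucocorticoids) had 249, 61.8, 169 and 243 rescaled TPM in KD tumors and 103, 217, 68.5 and 47.8 in ND tumors. Nontumor livers had Serpina6 at 171, 185, 105 and 157 on KD and 155, 213, 227 and 124 on ND. The spread among tumors was wide on both diets (0.07 ± 0.45, limma adjusted p = 0.921 on KD; -0.91 ± 0.45, limma adjusted p = 0.144 on ND), and without ND tumor 2 the ND value was -1.31 (limma adjusted p = 0.0306). Serpina7 (thyroxine-binding globulin) ranged over 18.8 to 44.5 in KD tumors, 29.6 to 65.5 in ND tumors, 12.5 to 68.7 in KD nontumor livers and 30.1 to 80.6 in ND nontumor livers. Of 9 other tested genes of steroid and thyroid hormone carriage and response, 0 were higher and 2 lower in KD tumors, and 1 was higher and 4 lower in ND tumors. Among all tested genes the shares were 16.3% higher and 16.2% lower on KD, and 14.5% and 14.2% on ND. Tsc22d3, a glucocorticoid-induced gene, was lower on both diets (-1.71 ± 0.27, limma adjusted p = 0.000258 on KD; -1.65 ± 0.27, limma adjusted p = 0.000313 on ND).

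Serpinh1 (HSP47, the endoplasmic reticulum chaperone of procollagen) ranged over 32.3 to 98.6 rescaled TPM in KD tumors, 64.0 to 126 in ND tumors, 13.4 to 67.4 in KD nontumor livers and 44.5 to 55.8 in ND nontumor livers. ND tumors lay above all ND nontumor livers, yet the log2 fold change did not pass (0.92 ± 0.43, limma adjusted p = 0.118), and in a fit of the compared groups alone (limma adjusted p = 0.0181) and with the replicate block (0.032) it did. KD tumors overlapped (0.75 ± 0.43, limma adjusted p = 0.187). Of 18 genes of collagens and collagen folding, 10 were higher and 3 lower in KD tumors, and 5 were higher and 0 lower in ND tumors. The shares of all tested genes were 16.3% and 16.2% on KD and 14.5% and 14.2% on ND, also for the markers below. Col1a1 was higher on both diets (2.17 ± 0.48, limma adjusted p = 0.0029 on KD; 1.91 ± 0.48, limma adjusted p = 0.00722 on ND), and so was Col4a1 (1.82 ± 0.33, limma adjusted p = 0.000668 on KD; 1.64 ± 0.33, limma adjusted p = 0.00152 on ND) and Lox, which crosslinks collagen (1.31 ± 0.27, limma adjusted p = 0.00174 on KD; 0.92 ± 0.27, limma adjusted p = 0.017 on ND). Col1a2 was higher on KD (1.90 ± 0.43, limma adjusted p = 0.00333) and on ND (1.19 ± 0.43, limma adjusted p = 0.0492). Col4a2 was also higher on KD (1.21 ± 0.30, limma adjusted p = 0.00535) and on ND (1.77 ± 0.30, limma adjusted p = 0.000332). The 8 stellate cell and fibroblast markers, which include Col1a1, summed to 119 to 272 in KD tumors, 96.8 to 198 in ND tumors, 40.8 to 91.2 in KD nontumor livers and 74.5 to 161 in ND nontumor livers. Of that list, 3 were higher and 1 lower in KD tumors, and 2 were higher and 3 lower in ND tumors. Acta2 was higher on both diets (2.86 ± 0.40, limma adjusted p = 9.37e-05 on KD; 1.52 ± 0.40, limma adjusted p = 0.00954 on ND), and Lrat was lower on both (-0.91 ± 0.27, limma adjusted p = 0.0173 on KD; -1.68 ± 0.27, limma adjusted p = 0.000256 on ND). Dcn was lower on ND (-2.60 ± 0.43, limma adjusted p = 0.000289), and Col3a1 was higher on KD (1.74 ± 0.49, limma adjusted p = 0.0129). The part of these cells in the levels of Serpinh1 and Serpine2 was not tested.

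Serpina12 (vaspin, a secreted inhibitor of kallikrein 7 known as an adipokine) rose in tumors on both diets. It had 220.4, 266, 270.1 and 218 rescaled TPM in KD tumors and 135, 184, 116 and 105 in ND tumors. Nontumor livers had Serpina12 at 34.9, 70.1, 13.8 and 27.4 on KD and 41.9, 56.6, 57.1 and 30.7 on ND. All tumors stood above all nontumor livers, and all KD tumors above all ND tumors. The log2 fold changes in tumors were 2.92 ± 0.35, limma adjusted p = 2.24e-05 on KD and 1.52 ± 0.35, limma adjusted p = 0.00381 on ND, and both calls held with each library left out in turn. Serpina11, a liver serpin of little known function, was lower in ND tumors. It had 80.4, 72.5, 76.2 and 109 rescaled TPM in KD tumors and 101, 105, 61.0 and 65.0 in ND tumors. Nontumor livers had Serpina11 at 122, 119.7, 89.7 and 110.3 on KD and 139, 173, 172 and 169 on ND. ND tumors all lay below ND nontumor livers (-1.0 ± 0.20, limma adjusted p = 0.0016), and KD tumors overlapped KD nontumor livers (-0.39 ± 0.20, limma adjusted p = 0.155). Serpina9 was low except in KD nontumor 3 and 4, with 8.86 and 6.58 rescaled TPM against 0.253 and 0.327 in KD nontumor 1 and 2, and it did not pass on either diet, though on KD it did without KD nontumor 1 (limma adjusted p = 0.0315) or KD nontumor 2 (0.0368).

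**Figure D4:**
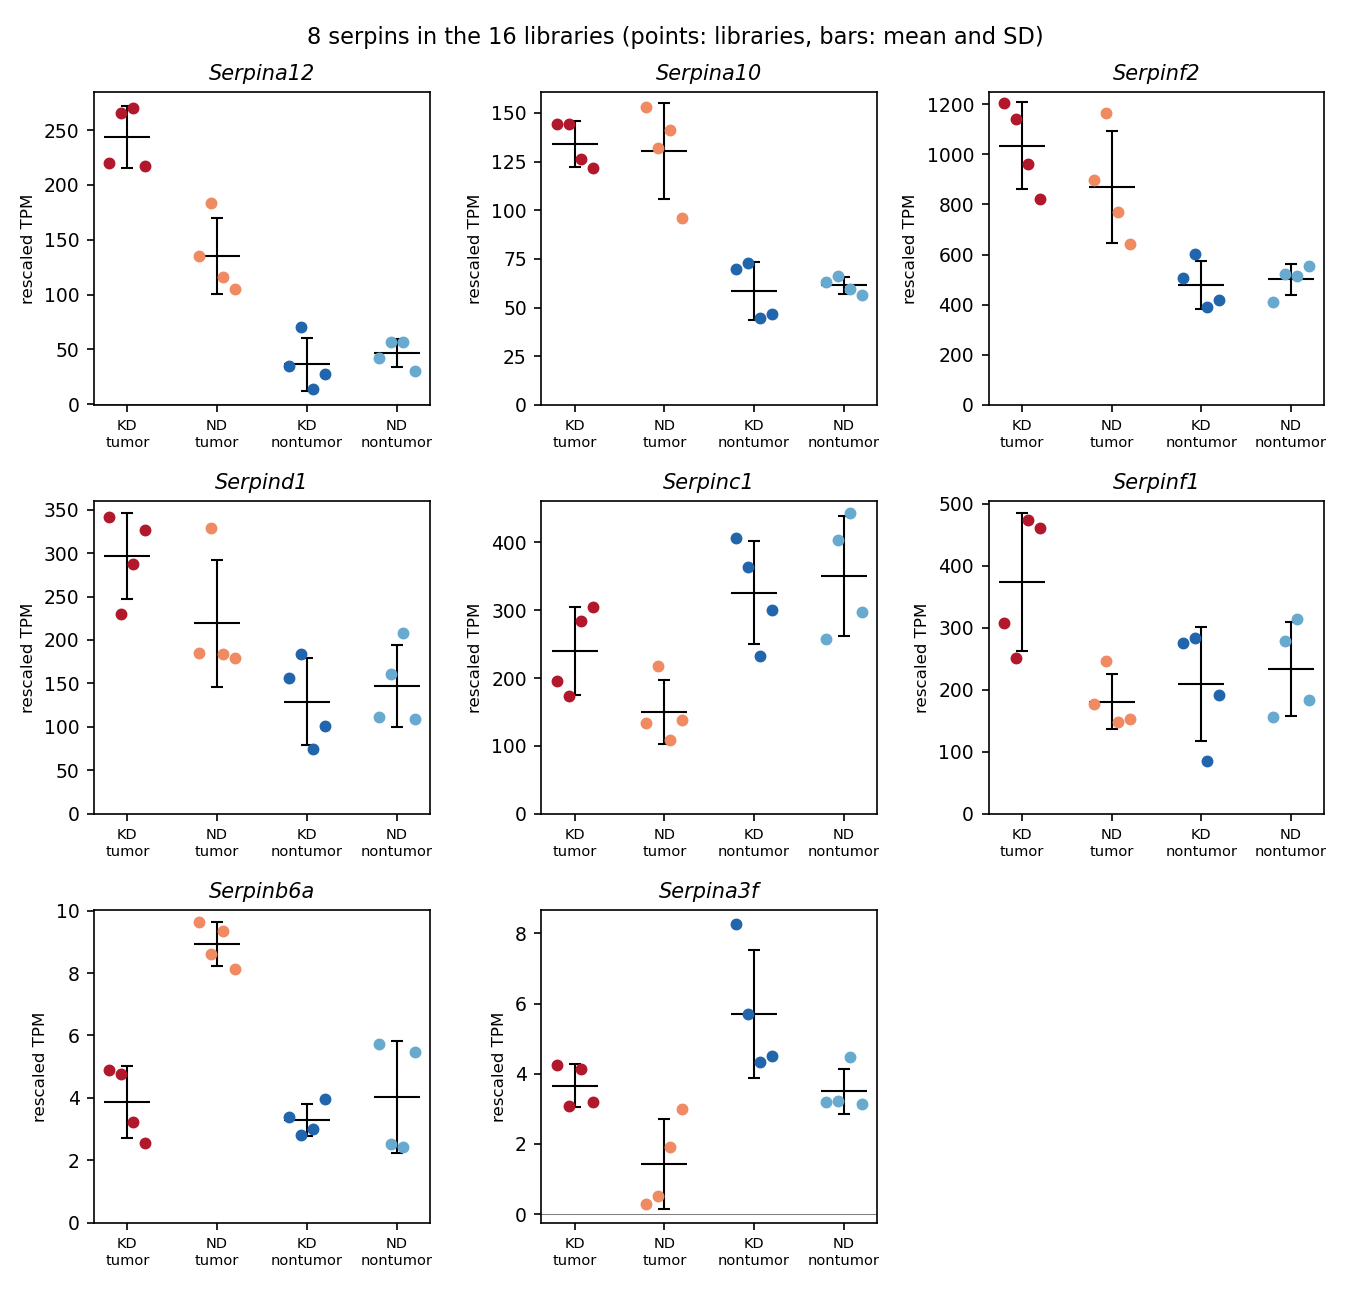
Rescaled TPM of Serpina12, Serpina10, Serpinf2, Serpind1, Serpinc1, Serpinf1, Serpinb6a and Serpina3f in the 4 libraries of each group (points), with the group mean and SD (bars). Serpina12 lies at 105 to 270.1 in the tumors and at 13.8 to 70.1 in the nontumor livers, and Serpinb6a at 8.12 to 9.65 in the ND tumors.

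Clade b serpins, which protect cells from their own granule and lysosomal proteases, were low throughout, with 15 rows and 5 described. Serpinb6a (an inhibitor of cathepsin G) was higher in ND tumors than in any other group. It had 4.90, 4.75, 3.24 and 2.56 rescaled TPM in KD tumors and 9.65, 8.62, 9.36 and 8.12 in ND tumors. Nontumor livers had Serpinb6a at 3.38, 2.81, 3.01 and 3.96 on KD and 5.71, 2.51, 2.43 and 5.48 on ND. The lowest ND tumor lay above each of the other 12 libraries. Against nontumor liver the values were 1.05 ± 0.23, limma adjusted p = 0.00295 on ND and 0.16 ± 0.23, limma adjusted p = 0.634 on KD. Exons of Serpinb6a overlap those of 1110046J04Rik, Nqo2 and Ripk1 on the other strand, and the counting is not stated to use strand, so reads of these genes cannot be told apart there.

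Serpinb9 (an inhibitor of granzyme B) was higher in tumors on both diets. It had 1.88, 3.37, 2.60 and 2.54 rescaled TPM in KD tumors and 4.12, 2.59, 3.89 and 2.99 in ND tumors. Nontumor livers had Serpinb9 at 1.51, 1.81, 1.10 and 0.716 on KD and 1.55, 1.60, 1.56 and 1.91 on ND. Groups did not overlap within a diet (0.67 ± 0.19, limma adjusted p = 0.0145 on KD; 0.72 ± 0.19, limma adjusted p = 0.0105 on ND), and the KD call was lost without KD nontumor 4 (limma adjusted p = 0.0576) or KD tumor 2 (0.0542). On the deposited scale without ND nontumor 4 neither call held (limma adjusted p = 0.132 on KD and 0.0662 on ND). With voom the KD call was lost as well (adjusted p = 0.061 in the voom fit). Serpinb1a (an inhibitor of neutrophil elastase and proteinase 3) had 0.416, 0.688, 0.457 and 0.343 rescaled TPM in KD tumors and 2.52, 0.174, 0 and 2.57 in ND tumors. Nontumor livers had Serpinb1a at 3.64, 2.68, 0.883 and 1.81 on KD and 2.03, 2.13, 2.36 and 2.7 on ND. KD tumors lay below all KD nontumor livers (-1.07 ± 0.38, limma adjusted p = 0.0388), a call lost in 7 of 8 fits with a library left out, all but the one without KD nontumor 3, with limma adjusted p up to 0.104. It rests on 4 to 9 reads in each KD tumor, and on ND the value was -0.75 ± 0.38, limma adjusted p = 0.149, or limma adjusted p = 0.048 without ND tumor 4. Serpinb6b spanned 2.91 to 7.16 in KD tumors, 2.73 to 7.69 in ND tumors, 1.99 to 4.60 in KD nontumor livers and 1.57 to 3.94 in ND nontumor livers. Neither it nor Serpinb8, at most 2.31 in any library, was called, although Serpinb6b on ND passed without ND tumor 3 (limma adjusted p = 0.0407).

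Markers of the blood cells that use clade b serpins moved in several directions. The 6 macrophage markers summed to 57.9 to 101 in KD tumors, 46.9 to 76.3 in ND tumors, 123 to 189 in KD nontumor livers and 206 to 297 in ND nontumor livers, and Marco was at 0 in 2 libraries. Limma called 0 of the 6 higher and 2 lower in KD tumors, and 0 higher and 4 lower in ND tumors. All tested genes had 16.3% and 16.2% called on KD, and 14.5% and 14.2% on ND. The 7 T and NK cell markers summed to 11.3 to 27.5 in KD tumors, 11.4 to 35.5 in ND tumors, 4.98 to 13.2 in KD nontumor livers and 8.66 to 14.6 in ND nontumor livers, and Gzma was at 0 in 4 libraries, Gzmb in 2, and Cd3e and Prf1 in 1 each. Of the 5 tested, 1 was higher and 0 lower in KD tumors, and 2 were higher and 0 lower in ND tumors. Of Gzma, Gzmb, Gzmk and Prf1, only Gzmb passed the filter, and it was not called (-0.90 ± 0.53, limma adjusted p = 0.204 on KD; -0.56 ± 0.53, limma adjusted p = 0.459 on ND). The part of these cells in the clade b levels was not tested.

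Between the diets, few serpins differed. In tumors 1 serpin was higher on KD and 1 lower, where 7.21% of all tested genes were called higher and 8.49% lower (15.7% in either direction), and 4 serpins had groups that did not overlap (22.9% of all tested genes). The median log2 difference of the 30 serpins was 0.28, beside 0.03 over all tested genes. Serpina3f was higher in KD than in ND tumors (1.08 ± 0.30, limma adjusted p = 0.0235), a call lost without KD tumor 3 (limma adjusted p = 0.0651), ND tumor 1 (0.0754) or ND tumor 2 (0.0585). Serpinb6a was lower in KD than in ND tumors (-1.06 ± 0.23, limma adjusted p = 0.00854), with limma adjusted p = 0.00856 to 0.0315 over the 8 fits with a library left out. The other two with groups that did not overlap were Serpinf1 (1.02 ± 0.35, limma adjusted p = 0.0601) and Serpina12 (0.87 ± 0.35, limma adjusted p = 0.0973), both higher in all KD than in all ND tumors and both short of the threshold. In a fit of the compared groups alone both passed (limma adjusted p = 0.0281 for Serpinf1 and 0.0203 for Serpina12), and the call of Serpina3f was lost (0.0626). Without ND tumor 2, Serpinf1 also passed, and so did Serpinc1 (limma adjusted p = 0.0415, against 0.68 ± 0.27, limma adjusted p = 0.0911 with all libraries).

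Among the proteases and other inhibitors that serpins work beside, some also differed between tumors of the 2 diets. Over all tested genes 7.21% were higher and 8.49% lower in KD than in ND tumors. Of 9 coagulation proteases, 2 were higher and 1 lower in KD than in ND tumors. F11 averaged 92.7 rescaled TPM in KD tumors and 239 in ND tumors (-1.36 ± 0.23, limma adjusted p = 0.00223). F9 (0.73 ± 0.21, limma adjusted p = 0.0317) and F2, prothrombin (0.92 ± 0.28, limma adjusted p = 0.0373), were higher in KD tumors, and so was Masp2, 1 of 7 tested complement proteases (0.96 ± 0.20, limma adjusted p = 0.00659). Of 14 other plasma protease inhibitors, 1 was higher and 3 lower, with Itih3, a heavy chain of the inter-alpha inhibitor, lower in KD tumors (-1.51 ± 0.23, limma adjusted p = 0.00128). None of the 18 acute phase genes passed between tumors of the diets.

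In nontumor liver 0 serpins were called between the diets by limma, where 0.00744% of tested genes were called higher and 0.0372% lower (0.0447% in either direction). At an unadjusted p under 0.05 there were 0 higher and 1 lower serpins, and the share of all tested genes at that threshold was not counted. With voom on recovered reads 0 were called as well. That 1 gene is Serpina11, with all KD nontumor livers below all ND nontumor livers (-0.56 ± 0.20, limma adjusted p = 0.378), and 5.98% of all tested genes had groups that did not overlap. Without KD nontumor 3 and 4, Serpina3m was called higher on KD (0.87, limma adjusted p = 0.0392), and without KD nontumor 1 and 2 Serpina9 was (1.68, limma adjusted p = 0.0403). For the difference of the diet effects between tumor and nontumor liver, limma called 0 serpins in either direction (0.208% and 0.402% of all tested genes, 0.61% in either), and voom called 0. At an unadjusted p under 0.05, 3 serpins were higher and 1 lower, again without a count over all tested genes. The 3 smallest limma adjusted p-values belonged to Serpina12 (1.39 ± 0.50, limma adjusted p = 0.169), Serpinb6a (-0.90 ± 0.33, limma adjusted p = 0.178) and Serpinf1 (1.26 ± 0.50, limma adjusted p = 0.205). Without KD nontumor 1 and 2 limma called 3 serpins, Serpina12 (2.04, limma adjusted p = 0.0102), Serpinf1 (1.82, limma adjusted p = 0.0276) and Serpina3k (1.99, limma adjusted p = 0.0451), and without KD nontumor 3 and 4 it called 0. With all 16 libraries, a tumor effect called on 1 diet and not on the other is therefore not shown to differ between diets for any serpin. The sums of Serpina1 and Serpina3 gave no call between diets in tumors (0.46, exact p = 0.114, 0.229 after adjustment; 0.35, exact p = 0.114, 0.229 after adjustment) or in nontumor liver (-0.35, exact p = 0.371, 0.594 after adjustment; -0.16, exact p = 0.83, 0.83 after adjustment) in the exact permutation test. Before adjustment the tumor difference reached exact permutation p = 0.0286 for Serpina1 without ND tumor 2 (0.64) and for Serpina3 without KD tumor 1 (0.51).

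Most of the described genes lie together. On chromosome 12 (GRCm38), 23 serpins, all of clade a, stand within chr12:103614786-104414329, a span of 799.54 kb, and 16 of them are described. The remaining described serpin of clade a, Serpina7, is on chromosome X. In the annotation Serpina1d lies within the span of Serpina1b (chr12:103728156-103830373). The measured levels of neighbours in this cluster did not move as a block. The split of reads among the Serpina1 copies, and between Serpina3k and Serpina3m, is uncertain, which limits this reading. Serpina1b and Serpina1a, higher in KD tumors, alternate with Serpina1d, which had no call, and Serpina1e, lower on both diets, lies next to Serpina1c and Serpina11. Serpina3k, lower in ND tumors, stands beside Serpina3m and Serpina3n, both higher. Outside it, clade b genes lie on chromosomes 1 and 13, and Serpinf1 (chr11:75409769-75422701) and Serpinf2 (chr11:75431732-75439591) are neighbours on the minus strand of chromosome 11, with calls for Serpinf2 in tumors on both diets and none for Serpinf1.

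**Figure D5:**
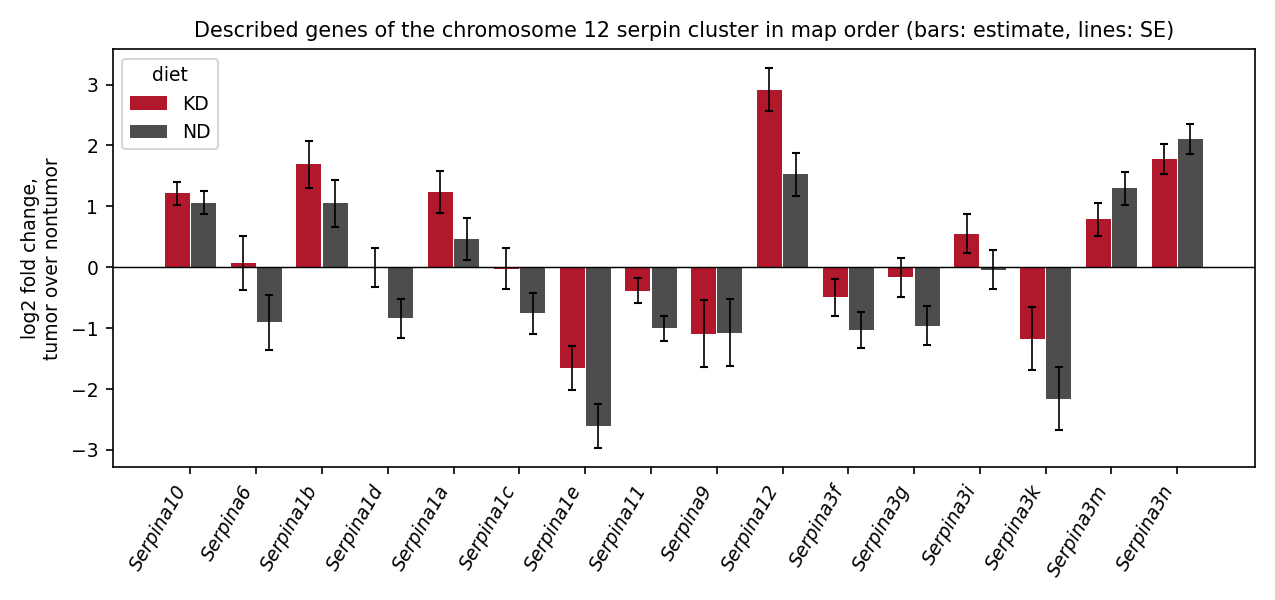
Log2 fold changes in tumors over nontumor liver for the 16 described serpins of the chromosome 12 cluster, in map order, on KD (red) and ND (grey), with lines for the SE. Bars above 0 on both diets (Serpina1b, Serpina12, Serpina3n) and below 0 on both (Serpina1e, Serpina3k) occur in the same cluster.

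The 130 bases before the annotated start were searched for short motifs on both strands in the 22 of 30 tested serpins that the RefSeq table used here covers. The HNF1 letters GTTAAT occurred in 6 of them, the 5 Serpina1 copies and Serpina7, and in 3.25% of 27025 promoters. The FOXA letters TGTTTNC occurred in 8 serpins (the 5 Serpina1 copies, Serpina3f, Serpinb6a and Serpind1) and in 8.71% of promoters. Both counts include the 5 near-identical Serpina1 promoters, which are not independent of each other, so they cannot be set against these shares as an excess. The STAT letters TTCNNNGAA, the motif of factors downstream of interleukin 6, occurred in 5 (Serpina11, Serpina3f, Serpina3g, Serpina3i and Serpinb6a) and in 3.6% of promoters. The C/EBP letters TTGCNNAA occurred in 3 (Serpina12, Serpina3f and Serpina7) and in 4.58%. The AP-1 letters TGANTCA occurred in 1 (Serpinb8) and in 3.7%, and the TATA box letters TATAAA in 1 (Serpina7) and in 7.29%. The E-box letters CACGTG occurred in 0 serpins and in 3.89% of promoters. The heat shock element letters GAANNTTC occurred in 0 serpins and in 3.53% of promoters. The counts depend on the window. Over 250 bases before the start, HNF1 letters occurred in 7 serpins (6.52% of promoters), FOXA in 9 (17.9%) and STAT in 5 (7.18%). C/EBP letters occurred there in 6 (9.55%), AP-1 in 5 (6.87%) and the TATA box in 2 (13%). The E-box (6.05%) and the heat shock element (6.78%) again had 0. Among the 5 with the STAT letters, Serpinb6a was higher and Serpina11, Serpina3f and Serpina3g lower in ND tumors, and Serpina3i was not called. The part of these letters in the levels was not tested.

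Protease inhibitors of blood plasma that are no serpins moved in both directions as well. Of 14 such genes, 3 were higher and 3 lower in KD tumors, and 3 were higher and 3 lower in ND tumors. All tested genes stood at 16.3% higher and 16.2% lower on KD, and at 14.5% and 14.2% on ND. Pzp (pregnancy zone protein, a broad protease trap) averaged 1044 rescaled TPM in KD tumors and 384 in KD nontumor livers (1.47 ± 0.22, limma adjusted p = 0.000145), and was higher on ND too (1.34 ± 0.22, limma adjusted p = 0.000273). Mug1, its relative, was lower on both diets (-2.07 ± 0.31, limma adjusted p = 0.000138 on KD; -1.72 ± 0.31, limma adjusted p = 0.000567 on ND). A2m was higher in ND tumors (2.56 ± 0.40, limma adjusted p = 0.000203) and lower in KD than in ND tumors (-2.09 ± 0.40, limma adjusted p = 0.00449).

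The 19 low members were Serpina1f, Serpina3a, Serpina3b, Serpina3c, Serpina3j, Serpina3l-ps and Serpina5 of clade a, Serpinb1b, Serpinb1c, Serpinb2, Serpinb5, Serpinb6c, Serpinb7, Serpinb9b, Serpinb9g, Serpinb10 and Serpinb12 of clade b, and Serpine3 and Serpini1. Reads recovered for each of them over all 16 libraries together numbered 1 to 176, and 11 of the 19 had under 10. Just outside the rule lay Serpini1 (neuroserpin) with a highest deposited value of 1.38 TPM, Serpinb1c with 1.76, Serpina3b with 1.10 and Serpina3l-ps with 1.07, each at or above 1 in a single library. At this depth a gene without reads is not shown to be silent.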

How the data were processed

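Polyadenylated RNA of 16 liver samples was sequenced. Per the submitters' processing notes, reads passed through FastQC, HISAT2 (mm10), SAMtools and featureCounts, with no versions given. The authors deposited 1 table of TPM values for 20601 genes; how counts became TPM and which annotation was used are not given in the sources used here. Column names of the 8 nontumor samples end their diet code with P and the titles with N, so diet code and number made the match.

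All TPM values were whole reads times a constant per gene (20601 of 20601 genes, tolerance 0.001 reads), and for 18330 of 19991 genes (91.69%) the step matched the summed exon length in GENCODE M21 within 0.1%. The recovered reads gave the depth and an added voom fit. Libraries differ in depth, 3.519 to 14.07 in units of 1e6 reads, so low genes are least precise in the shallow ones; intervals on counts would cover counting error only.

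Values were divided by a median-of-ratios factor per library (12119 genes above 0 in all libraries; 0.9221 to 1.498 in 15 libraries and 0.1262 in ND nontumor 4). The 13432 genes that reached a deposited TPM of 1 in 4 or more of the 16 libraries were tested with limma 3.58.1 (R 4.3.3) with a variance trend on log2(rescaled TPM + 1), with 4 group means, no block and Benjamini-Hochberg adjustment at 0.05. Summed levels were compared with exact two-sided permutation tests (numpy 2.4.6), adjusted over 8 tests. On simulated data for tumor against nontumor liver on ND, over 13432 genes, 46.0% of 200 genes changed 2-fold and 89.5% of those changed 4-fold were recovered. In these simulations 5 and 18 unchanged genes were called. The real comparison called 28.7% of genes, far more than were changed here, so the recovery there may differ. Alternatives were the deposited scale, another pseudocount, no filter, only the compared groups, the replicate block and each library left out. Voom, the deposited scale without ND nontumor 4, and fits without 2 of the KD nontumor libraries were added after seeing the data. Sequences came from RefSeq (GRCm38.p6) and GENCODE M21 (Biopython 1.88); figures were drawn with matplotlib 3.10.9.

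Of the 30 tested serpins 1 is not reported here by name, and it remains in the counts and medians. Members, gene lists and the genes named were chosen with earlier results of these data known. Values per library were given for described serpins with an adjusted p under 0.05 in any comparison or a group mean of 100 rescaled TPM or more, and for up to 4 genes per other list, those with the smallest adjusted p in the comparison at hand, some with their value on the other diet.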

Additional observations from a re-analysis of the deposited data

Results flagged for a closer look

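In 5 of 116 groups of 4 libraries (29 serpins in 4 groups), the highest or lowest library stood far from the other libraries of its group, and chance alone flags about 1 in 20 groups. Serpind1 was 328.7 rescaled TPM in ND tumor 2, where the others had 179 to 185.3. Serpina3m was 143.4 in ND tumor 4, where the others had 123.4 to 126.8. In ND nontumor livers Serpina11 was lowest in library 1, at 138.6 against 168.6 to 172.7 in the others. Serpina3f was 4.472 in ND nontumor 3 and 3.129 to 3.213 in the others, and Serpinb9 was 1.914 in ND nontumor 4 and 1.554 to 1.595 in the others.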

How the results depend on the processing

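Of the 30 calls on single serpins, 21 held with each library left out in turn. On the deposited TPM scale with all 16 libraries 7 of the 30 held, 22 were lost and 1, Serping1 in ND tumors, reversed to 0.016 (limma adjusted p = 0.993); without ND nontumor 4 that scale kept 25 and lost 5. Counts of called serpins on the deposited scale were 5 higher and 0 lower in ND tumors, 1 higher and 1 lower in KD tumors, and 0 and 0 between diets in tumors. The scale without ND nontumor 4 gave 7 lower in KD tumors, and a pseudocount of 0.1 gave 1 lower. Between diets in tumors, the fit of the compared groups alone and voom each gave 2 higher. With a library left out, the counts ran over 7 to 9 higher and 7 to 9 lower in ND tumors, 7 to 11 higher and 1 to 4 lower in KD tumors, and 0 to 2 higher and 1 to 1 lower between diets in tumors, and stayed at 0 to 0 between diets in nontumor liver and for the difference of diet effects. The Serpina1 sum in KD tumors against nontumor liver was 0.366 (exact permutation p = 0.171) on the deposited scale and ran over 0.490 to 0.833 with a library left out. It was 0.320 (exact permutation p = 0.200) without KD nontumor 3 and 4 and 1.08 (0.0667, the smallest that 4 against 2 allow) without KD nontumor 1 and 2. The Serpina1 sum ran over -0.282 to 0.0559 in ND tumors against nontumor liver, 0.298 to 0.635 between diets in tumors and -0.490 to -0.136 between diets in nontumor liver. The Serpina3 sum ran over -1.18 to -0.678 in ND tumors, -0.807 to -0.0255 in KD tumors, 0.267 to 0.510 between diets in tumors and -0.500 to 0.281 between diets in nontumor liver, so that 2 of these ranges change sign. Without KD nontumor 3 and 4 the count in KD tumors was 5 higher, and 1 serpin was higher between diets in nontumor liver; without KD nontumor 1 and 2 that count was 1 too, and the difference of diet effects gave 3 higher. Same-numbered tumor and nontumor libraries of a diet deviated from their group means with r = -0.112 to 0.164 over genes. Differently numbered ones did so with r = -0.229 to 0.181. Deviations from means of 4 libraries are bound to each other, so these values cannot settle which libraries share a mouse. The numbers were not taken to pair the mice. With the replicate block the Serpina1 sum gave 0.700 (exact permutation p = 0.125, the smallest that 4 pairs allow), and the block ended 1 of the 30 calls, Serping1 in ND tumors (limma adjusted p = 0.0574), and added 2, among them Serpinh1 in ND tumors (0.032). The causes were not tested, and the shares of all tested genes called in these alternatives were not counted. Depth limits the members with few reads, such as Serpinb1a and Serpine2.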
